A study of Mus musculus with 2 samples.

Results

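Plasmacytoid dendritic cells of mouse bone marrow were taken as the cells with at least 3 Siglech UMIs. A UMI (unique molecular identifier) stands for 1 captured RNA molecule, and Siglech encodes a sialic acid-binding surface receptor that marks these cells in mice. In all, 72 of 2478 cells met the rule, of which 41 lay among 1309 cells of the Col1a1fspKO library and 31 among 1169 cells of the WT library. The Col1a1fspKO mice carried Fsp1-Cre and Col1a1flox/flox, so that Cre is driven by the promoter of Fsp1 (S100a4). It removes the alpha-1 chain of type I collagen in Fsp1-lineage cells, which include descendants of cells where that promoter was active. The WT littermates carried Col1a1flox/flox too and were Cre-negative. Marrow was flushed from femur and tibia of untreated animals at 2 months of age, pooled from 2 mice per genotype, sorted for live cells and run as 1 droplet library (10x Genomics 3' v2) per genotype. With 1 pool per genotype a difference between genotypes has no replicate check, and genotype, animals and library cannot be told apart. Values for both libraries are therefore given side by side, with no test. Intervals in brackets are 95% intervals that cover counting error only, exact except for differences of shares (Newcombe).

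Plasmacytoid dendritic cells are the lineage that senses viral nucleic acids in endosomes through Toll-like receptors and answers with type I interferon. They form in the bone marrow from dendritic cell and lymphoid progenitors, depend on the transcription factor Tcf4 (E2-2), carry an abundant secretory apparatus, and leave for blood and lymphoid organs as they mature. The label was checked with 4 further markers, Bst2 (tetherin), Tcf4, Cox6a2 and Ccr9.

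The markers went together. Of the Col1a1fspKO cells, 26 of 41 held UMIs of all 4 further markers and 13 of 41 held 3 of them. Of the WT cells, 14 of 31 held all 4, 15 of 31 held 3, and 1 cell held a single one. Bst2 ranged from 0 to 50 UMIs per cell (median 18) in Col1a1fspKO and from 0 to 29 (median 20) in WT, and 40 of 41 and 30 of 31 cells held it. Tcf4 was found in 41 of 41 and 30 of 31 cells (median 5 UMIs in both libraries), and Cox6a2 in 39 of 41 and 29 of 31 cells (median 6 and 7). Ccr9, a chemokine receptor for homing to gut and thymus, was the least often seen, in 27 of 41 and 15 of 31 cells. Siglech itself, which chose the cells, had a median of 6 and 7 UMIs and a maximum of 16 and 12.

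**Figure D1:**
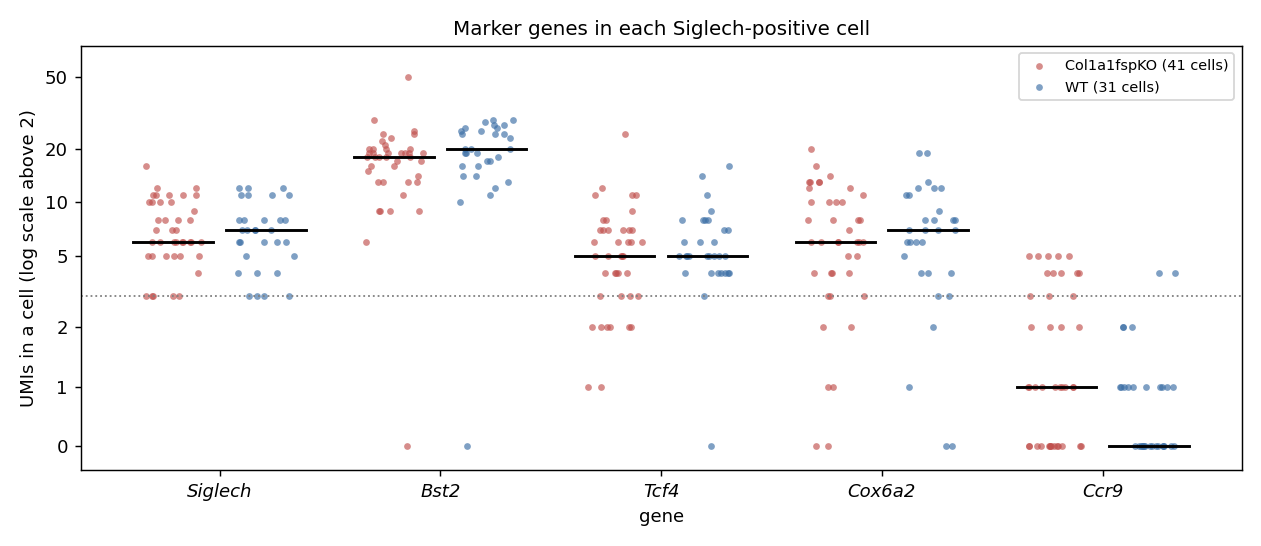
UMIs of the 5 marker genes in each Siglech-positive cell of the Col1a1fspKO (41 cells) and WT (31 cells) libraries; each point is a cell, the black bar is the median, the axis is logarithmic above 2 UMIs, and the dotted line marks 3 UMIs, which chose the cells for Siglech. Bst2 is at 10 or more UMIs in most cells and Ccr9 has a median of 1 UMI in Col1a1fspKO and of 0 in WT.

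Few cells lay near the limit of the rule. Just outside it, 10 Col1a1fspKO and 4 WT cells held 1 to 2 Siglech UMIs. With 2 UMIs, 4 of 4 Col1a1fspKO and 2 of 2 WT cells carried at least 2 of the further markers, and with 1 UMI 4 of 6 and 1 of 2 did. Just inside it, at 3 UMIs, 5 of 5 and 3 of 4 cells did. Among cells with at least 2 UMIs of Cd79a, a B cell receptor chain, a Siglech UMI was found in 1 of 250 and 2 of 226, and among cells with at least 2 UMIs of the monocyte receptor Csf1r in 1 of 65 and 0 of 75, where 0 of 75 allows a share of cells with a UMI of up to 4% (taken as 3 cells). Depth was alike: the cells held 205324 UMIs in Col1a1fspKO (median 4500 per cell, 2885 to 16210) and 153609 in WT (median 4405, 3227 to 19981). Scrublet called none of them a doublet. Of the barcodes, 2 occurred in both libraries, none of them on a Siglech-positive cell.

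Siglech-positive cells made up 3.13% (2.26 to 4.23) of the Col1a1fspKO cells and 2.65% (1.81 to 3.74) of the WT cells. The difference was 0.480 percentage points with an interval of -0.879 to 1.82 points (Newcombe) for counting error among cells, which says nothing of the spread between animals.

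Markers of other lineages were looked at next. The 4 markers of stroma (Col1a1, Col1a2, Cxcl12 and Lepr) were at 0 UMIs in all 72 cells, so the targeted gene cannot be compared here. S100a4, the gene of the Cre driver, had 1 UMI in Col1a1fspKO and 4 in WT. These are 4.87 and 26.0 CPM (UMIs per 1000000 UMIs of the set), against 240 and 257 CPM in the other cells. Of the T cell markers, 0 of 41 and 1 of 31 cells held any, of the basophil markers likewise 0 of 41 and 1 of 31, and of the macrophage markers 1 of 41 and 0 of 31. Monocyte markers were at 0 in only 5 of 41 and 1 of 31 cells, and summed to 813 and 742 CPM against 693 and 686 CPM in the other cells. Most of these UMIs were of the chemokine receptor Ccr2 (83 and 64), while Csf1r had 1 and 2. Plasma cell markers were at 0 in 6 of 41 and 5 of 31 cells, and their UMIs were of Xbp1 and Mzb1 but for 7 and 1 of Sdc1. Erythroid markers were found in every cell, mostly as globin, with Klf1 at 0 UMIs. Every cell held UMIs of at least 1 of the 5 neutrophil markers, whose sum was 1228 to 5248 CPM per cell in Col1a1fspKO and 1828 to 4562 CPM in WT. Not all 5 were in every cell, since Camp was found in 32 of 41 and 22 of 31. S100a8, an abundant neutrophil transcript, lay at 1466 and 1276 CPM in the Siglech-positive cells against 66009 and 61945 CPM in the other cells of each library. The per-cell sums of the neutrophil markers had medians of 3602 and 2772 CPM here and of 4671 and 3931 CPM over the other cells. Markers of B cells were at 0 in 24 of 41 and 13 of 31 cells and those of conventional dendritic cells in 18 of 41 and 11 of 31. What part RNA from other cells has in the values below was not tested.

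The sequences before the start of 4 genes that lead the profile described next (Siglech, Klk1, Klk1b27, Bst2) are shown so that the genes can be placed. Those of Ly6c1, which parts between the libraries, and of its paralog Ly6c2, which was less than 2-fold apart, are shown too. They are 250 bases each, 5′ to 3′ on the gene's strand, from RefSeq (GRCm38.p6). Capitals mark matches on either strand to the E-box letters CACCTG and CAGCTG, bound by E proteins such as Tcf4, and to a longer motif (GAAA, any 2 bases, GAAA), the core of an interferon-stimulated response element, bound by interferon regulatory factors. Siglech is on the plus strand at chr7:55767934-55768183, Klk1 on the plus strand at chr7:44225110-44225359, Klk1b27 on the plus strand at chr7:44052040-44052289, Bst2 on the minus strand at chr8:71537473-71537722, Ly6c1 on the minus strand at chr15:75048838-75049087 and Ly6c2 on the minus strand at chr15:75111972-75112221.
Siglech: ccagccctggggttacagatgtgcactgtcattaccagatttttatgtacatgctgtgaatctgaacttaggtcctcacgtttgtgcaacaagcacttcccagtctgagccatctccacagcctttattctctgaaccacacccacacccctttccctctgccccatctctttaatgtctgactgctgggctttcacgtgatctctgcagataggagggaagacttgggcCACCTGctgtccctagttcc
Klk1: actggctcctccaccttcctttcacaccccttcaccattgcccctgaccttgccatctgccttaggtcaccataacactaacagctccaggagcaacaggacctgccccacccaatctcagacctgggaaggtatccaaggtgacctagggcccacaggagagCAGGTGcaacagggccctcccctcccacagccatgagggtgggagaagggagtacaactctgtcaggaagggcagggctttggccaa
Klk1b27: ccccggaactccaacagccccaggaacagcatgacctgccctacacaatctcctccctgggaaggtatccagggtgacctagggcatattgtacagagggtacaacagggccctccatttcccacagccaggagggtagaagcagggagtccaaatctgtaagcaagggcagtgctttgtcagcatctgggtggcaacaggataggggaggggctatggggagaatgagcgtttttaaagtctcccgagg
Bst2: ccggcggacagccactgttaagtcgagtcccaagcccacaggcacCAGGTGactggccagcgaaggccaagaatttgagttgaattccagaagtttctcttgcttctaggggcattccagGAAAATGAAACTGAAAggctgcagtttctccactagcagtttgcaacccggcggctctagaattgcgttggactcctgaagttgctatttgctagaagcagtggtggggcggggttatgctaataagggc
Ly6c1: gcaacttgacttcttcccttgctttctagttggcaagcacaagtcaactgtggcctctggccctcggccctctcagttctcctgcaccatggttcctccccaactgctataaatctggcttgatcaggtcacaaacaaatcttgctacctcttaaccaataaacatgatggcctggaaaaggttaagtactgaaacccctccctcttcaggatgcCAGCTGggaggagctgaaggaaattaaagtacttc
Ly6c2: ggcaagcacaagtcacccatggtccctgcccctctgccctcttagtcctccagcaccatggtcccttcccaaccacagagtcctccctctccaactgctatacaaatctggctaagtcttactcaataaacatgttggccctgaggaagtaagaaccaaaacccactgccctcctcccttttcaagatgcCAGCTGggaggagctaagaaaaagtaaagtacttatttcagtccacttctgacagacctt
Siglech, Klk1 and Bst2 each held 1 CACCTG, Bst2 also held 2 overlapping matches to the response element core, Ly6c1 and Ly6c2 each held 1 CAGCTG, and Klk1b27 held none of these letters. Over all 32851 windows of this length in the table, 17.2% held CACCTG, 13% CAGCTG and 2.98% the response element core. Of the 20 genes that lead the profile, 13 had windows in the table, 21 in all. Of these 21 windows, 4 held CACCTG (of Bst2, Irf8, Klk1 and Siglech), 2 held CAGCTG (of Ppfia4 and Tsc22d1) and 3 held the response element core (of Bst2 and Rnase6). A match is a run of letters and not a binding site. The Klk1 and Klk1b27 windows were alike at 78.8% of 184 aligned columns and those of Ly6c1 and Ly6c2 at 73.4% of 229.

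The Siglech-positive cells were then set against all other cells of the same library. Since the cells were chosen by Siglech, this contrast is a description. A gene had enough UMIs for it with at least 20 in the Siglech-positive cells of both libraries together, found there or to be found there at the level of the other cells. Of 2652 such genes, 455 (17.2%) were at least 2-fold higher and 252 (9.5%) at least 2-fold lower in both libraries. Among 454 genes with at least 100 UMIs in these cells, 20 (4.41%) were at least 10-fold higher in both. By the lower of the ratios in the libraries, the furthest apart was Klk1, encoding tissue kallikrein, a serine protease, with 448 CPM (Col1a1fspKO) and 592 CPM (WT) against 0.355 and 0.472 CPM in the other cells, or 1261-fold and 1255-fold. Siglech, which chose the cells, lay 881-fold and 2013-fold above the other cells, and D13Ertd608e 1480-fold and 243-fold. Klk1b27, a neighbouring kallikrein gene, followed at 380 and 671 CPM against 0.829 and 0.590 CPM, and Cadm1, a cell adhesion molecule, at 346 and 417 CPM against 1.42 and 0.944 CPM. Klk1 and Klk1b27 share sequence with other genes of their family, since 30.6% and 17.3% of the stretches of 50 bases in the last 500 bases of their GENCODE transcripts also occur in another member, so the split of UMIs among kallikreins is uncertain.

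**Figure D2:**
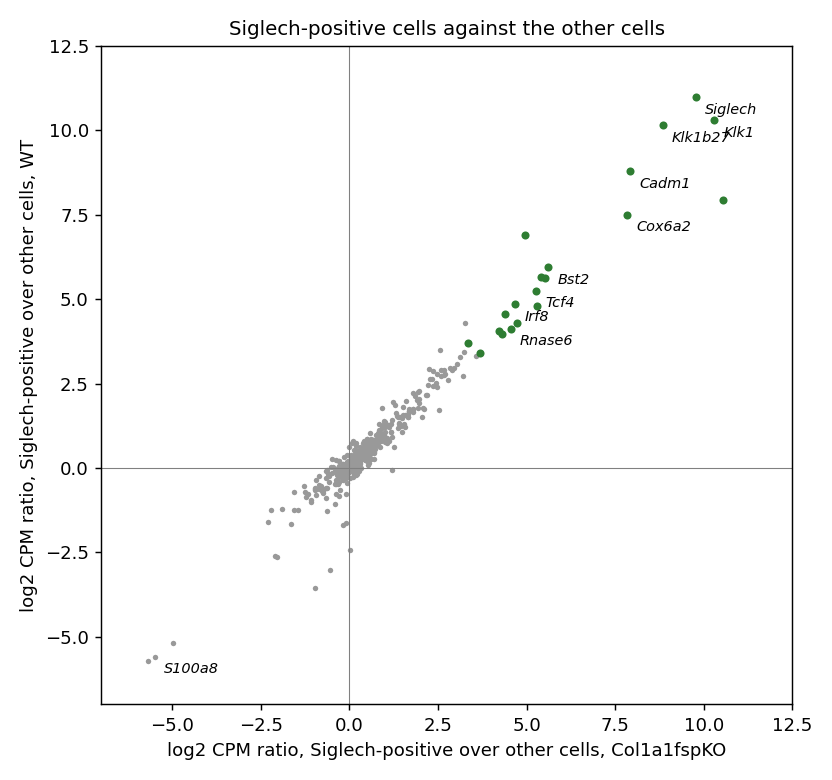
Log2 ratio of CPM in Siglech-positive cells over the other cells of the same library, Col1a1fspKO on the x axis and WT on the y axis, for genes with at least 100 UMIs in Siglech-positive cells over both libraries (a set with 0 UMIs is put at 3 UMIs); green points are the 20 genes at least 10-fold higher in both. Klk1, Siglech and Klk1b27 lie at the upper right, and the neutrophil gene S100a8 lies at the lower left.

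Genes were then grouped by their roles, each count to be read against the 17.2% higher and 9.5% lower over all 2652 genes. Of the 12 listed regulators with enough UMIs, 9 were at least 2-fold higher and 1 at least 2-fold lower than in the other cells of both libraries. Irf8, needed for dendritic cell development, was found in 41 of 41 and 31 of 31 cells, at 3633 and 4108 CPM against 142 and 143 CPM in the other cells. Tcf4 lay at 1154 and 1237 CPM against 29.7 and 32.7 CPM. Runx2, which is needed for these cells to leave the marrow, lay at 419 and 443 CPM, 42.6-fold and 50.7-fold above the other cells, and Bcl11a, a partner of Tcf4, at 555 and 573 CPM, 9.32-fold and 10.7-fold above them. Spib, an Ets factor of the lineage, lay at 307 and 312 CPM, 5.60-fold and 5.31-fold above the other cells. In Cd79a-positive cells it was nearly as high, at 241 and 254 CPM. Mycl, a Myc family factor used by dendritic cells, had few UMIs (23 and 16) but lay at 112 and 104 CPM against 1.30 and 1.18 CPM. Id2, which antagonises E proteins and is used by conventional dendritic cells, was the regulator that was lower. It had 0 UMIs in all 72 cells, against 41.9 and 5.41 CPM in Cd79a-positive and 199 and 160 CPM in Csf1r-positive cells. None of the 11 regulators with at least 20 UMIs over both libraries was 2-fold apart between the genotypes, where 3.91% of 2304 genes were at least 2-fold higher and 4.04% at least 2-fold lower in Col1a1fspKO.

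Of 30 surface and signalling genes, 23 were at least 2-fold higher in both libraries than in the other cells and 1, the adaptor gene Hcst, at least 2-fold lower. Cd7, an immunoglobulin family receptor of lymphoid cells, lay at 784 and 1204 CPM against 25.2 and 10.0 CPM. Lair1, an inhibitory receptor that binds collagens, lay at 443 and 384 CPM against 11.4 and 13.9 CPM, in 35 of 41 and 25 of 31 cells, and its ratio between genotypes was 1.15 (0.823 to 1.63). Havcr1 (TIM-1) had 29 and 22 UMIs in 23 of 41 and 15 of 31 cells, and lay at 141 and 143 CPM against 0.474 and 0.118 CPM. Pacsin1, an endocytic adaptor, lay at 219 and 241 CPM against 1.54 and 0.826 CPM. Lag3, an inhibitory receptor that binds MHC class II, lay at 97.4 and 97.7 CPM against 1.78 and 1.65 CPM. Cd4, which mouse plasmacytoid dendritic cells carry in part, was found in 17 of 41 and 7 of 31 cells, a difference of 18.9 points (-3.14 to 37.7).

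Genes of nucleic acid sensing were seen in both libraries. Of 9 sensing genes with enough UMIs, 5 were at least 2-fold higher in both libraries, against 17.2% of all genes, and none lower. Tlr7, the endosomal receptor for single-stranded RNA, had 10 UMIs in 9 of 41 Col1a1fspKO cells and 9 UMIs in 8 of 31 WT cells, against 3.79 and 4.01 CPM in the other cells, and Tlr9 was not listed in the tables. Unc93b1, which carries Toll-like receptors to endosomes, lay at 375 and 384 CPM, 3.47-fold and 3.38-fold above the other cells. Irf7, the factor that drives interferon alpha genes, lay 7.08-fold and 8.65-fold above them, at 253 and 241 CPM. It was found in 25 of 41 and 11 of 31 cells, a difference of 25.5 points (2.23 to 45.1), although its level was alike. Pld4, an endosomal nuclease, lay 6.05-fold and 7.42-fold above them, and Grn (progranulin), a cofactor for Toll-like receptor 9, 7.48-fold and 7.42-fold. Of 7 listed cytokine and chemokine genes, only Ccl5 had a UMI in the Siglech-positive cells, 2 in Col1a1fspKO and 0 in WT. Genes of interferon alpha, beta and lambda in the list were not listed in the tables.

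The list of interferon-stimulated genes, which also holds the interferon receptor chain Ifnar1, was mixed. Of 10 listed genes with enough UMIs, 6 were at least 2-fold higher than in the other cells of both libraries. Among them were Bst2, also a marker of the label, Trim30a (4.92-fold and 6.59-fold) and Ifnar1 (5.69-fold and 6.67-fold). Other members were at or near 0. Ifit1, Ifit2 and Oas1a had no UMI in any of the 72 cells, Ifit3 and Rsad2 had 1 UMI in Col1a1fspKO and 0 in WT, Mx1 had 1 UMI in each library, and Isg15 had 4 UMIs in Col1a1fspKO and 14 in WT, of which 12 lay in a single cell. Ifi27l2a lay at 1359 and 1224 CPM, 1.48-fold and 1.61-fold above the other cells.

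Of 25 secretory pathway genes, 8 were at least 2-fold higher in both libraries, against 17.2% of all genes, and none lower, against 9.5%. Xbp1, the transcription factor of secretory cells, lay at 229 and 234 CPM, 3.88-fold and 4.10-fold above the other cells. Hsp90b1 (gp96), the chaperone of Toll-like receptors, lay 3.22-fold and 3.20-fold above, and Mzb1, a chaperone best known in plasma cells, 2.52-fold and 2.93-fold. Mzb1 was higher still in the Cd79a-positive cells, at 653 and 643 CPM against 370 and 423 CPM here, whereas Xbp1 lay at 39.1 and 39.5 CPM there. Of the other plasma cell markers, Jchain was at 0 UMIs and Sdc1 at 7 and 1.

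Of 14 cathepsin and lysosome genes, 8 were at least 2-fold higher and 2, Lyz2 and Cd63, at least 2-fold lower than in the other cells of both libraries, against 17.2% and 9.5% of all genes. The protease Ctsc lay at 0.462 (0.230 to 0.829) and 0.532 (0.213 to 1.10) times the level of the other cells. Ctsd lay at 0.704 (0.415 to 1.12) and 0.967 (0.551 to 1.58) times that level, and its interval held 1 in both libraries. Ctsb lay at 1091 and 924 CPM, against 393 and 349 CPM in Csf1r-positive and 73.5 and 66.0 CPM in Cd79a-positive cells. Ctsh lay at 882 and 983 CPM against 380 and 421 CPM in Csf1r-positive cells. Ctsl, encoding cathepsin L, lay 26.3-fold and 19.6-fold above the other cells. Psap (prosaposin) lay at 2055 and 2116 CPM against 1427 and 1489 CPM in Csf1r-positive cells. Lyz2, the lysozyme of neutrophils and monocytes, lay the other way, at 161 and 189 CPM against 16152 and 20850 CPM in Csf1r-positive cells.

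One subunit of the respiratory chain set these cells apart. Of 12 cytochrome c oxidase subunits, Cox6a2 alone was at least 2-fold higher in both libraries, at 1456 and 1484 CPM against 6.396 and 8.26 CPM in the other cells, and the other 11 lay between 0.709 and 1.74 times the level in the other cells. Cox6a2 is the isoform of subunit 6a known from heart and skeletal muscle, and Cox6a1 is the common one. Of the UMIs of both genes, Cox6a2 held 75.5% (71.0 to 79.7) in Col1a1fspKO and 74.8% (69.5 to 79.5) in WT. In the other cells it held 1.09% (0.817 to 1.42) and 1.34% (1.05 to 1.69), and in Csf1r-positive cells 0 of 298 and 0 of 355 UMIs. Their transcript ends share no stretch of 50 bases.

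MHC class II divided the cells. Of 7 genes of class II presentation with enough UMIs, all 7 were at least 2-fold higher than in the other cells of both libraries. Cd74, the invariant chain that escorts class II molecules, was either low or high: 23 of 41 and 15 of 31 cells held at most 4 UMIs, and the others held at least 7 in Col1a1fspKO and at least 10 in WT. A limit of 5 UMIs was set after these values were seen. Cells above it made up 18 of 41 in Col1a1fspKO (43.9%, 28.5 to 60.3) and 16 of 31 in WT (51.6%, 33.1 to 69.8), and their median depth was 4202 and 4210 UMIs against 4549 and 4581 UMIs below it. The class II chains H2-Aa, H2-Ab1 and H2-Eb1 followed. Their summed UMIs ranged from 0 to 31 and from 4 to 32 in the Cd74-high cells, with a single Col1a1fspKO cell at 0, against a median of 0 and a highest value of 3 and 2 in the Cd74-low cells.

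**Figure D3:**
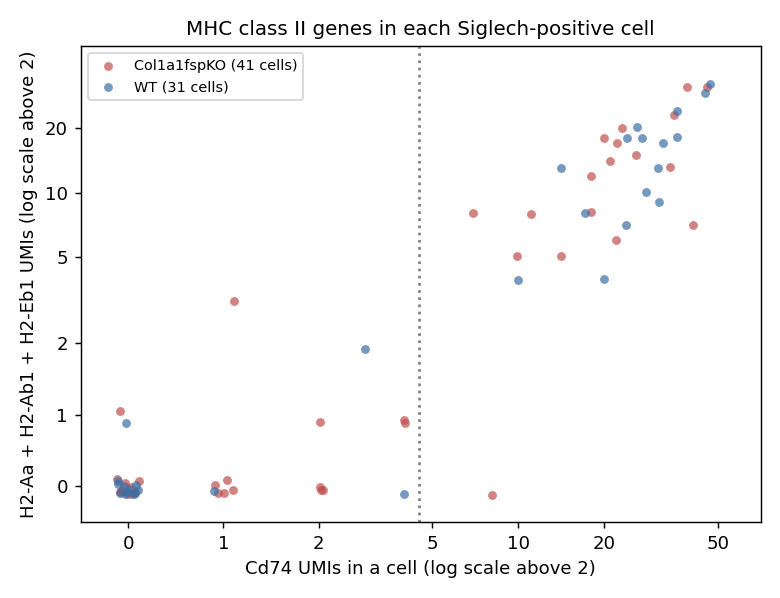
UMIs of Cd74 (x axis) against summed UMIs of the class II chains H2-Aa, H2-Ab1 and H2-Eb1 (y axis) in each Siglech-positive cell, both axes logarithmic above 2 UMIs, with points shifted slightly to show overlaps; the dotted line lies between 4 and 5 Cd74 UMIs. The cells of both libraries fall into a low and a high set, with 1 Col1a1fspKO cell high in Cd74 and at 0 class II UMIs.

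Other genes parted along with class II in both libraries, again as a description. Klk1 lay at 740 and 1042 CPM in Cd74-high cells against 278 and 243 CPM in Cd74-low cells, 2.67-fold (1.72 to 4.17) and 4.29-fold (2.60 to 7.35). Ly6a (Sca-1) lay 4.36-fold and 6.22-fold higher, P2ry14, a receptor for UDP-sugars, 2.57-fold and 4.72-fold, Lair1 2.0-fold and 2.93-fold, and Irf7 2.0-fold and 2.68-fold. Siglech was 1.67-fold and 1.48-fold higher there and Tcf4 1.49-fold in both. Higher in Cd74-low cells were Hmgb2, a chromatin protein high in dividing cells (6.20-fold and 5.83-fold), Cks2, a cell cycle kinase subunit (6.42-fold and 7.26-fold), Ccnd3 (cyclin D3, 4.67-fold and 3.76-fold), Vim (vimentin, 2.99-fold and 3.39-fold) and Ly6d (2.22-fold and 1.51-fold), all named after their values were seen. The deepest cell of each library, which held Mki67 and Top2a, and the Col1a1fspKO cell rich in globin were all Cd74-low. A single cell held 84 of 128 Hmgb2 UMIs in Col1a1fspKO and 48 of 68 in WT. Without those 3 cells Hmgb2 was 2.23-fold (1.10 to 4.88) and 1.52-fold (0.570 to 4.28) higher in Cd74-low cells, and Cks2 had 3 and 8 UMIs left. Vim was then 1.67-fold (0.904 to 3.22) and 2.94-fold (1.45 to 6.47) higher, Ccnd3 4.70-fold and 2.36-fold (0.852 to 7.49), and Ly6d 2.76-fold (2.11 to 3.64) and 1.96-fold (1.57 to 2.45). On the Cd74-high side Klk1 was then 2.10-fold and 3.30-fold higher, Ly6a 3.77-fold and 5.73-fold, P2ry14 2.16-fold and 3.62-fold, and Lair1 1.89-fold and 2.38-fold. Irf7 was 1.71-fold and 2.06-fold higher, Siglech 1.39-fold and 1.17-fold, and Tcf4 1.47-fold and 1.24-fold. Taken as Cd74-low over Cd74-high, the intervals of Irf7 held 1 in both libraries (0.318 to 1.06 and 0.222 to 1.003). In WT those of Siglech (0.648 to 1.13) and Tcf4 (0.593 to 1.09) held 1 too, and the others lay under 1. Irf8 lay with all cells at 3702 and 4405 CPM in Cd74-high against 3593 and 3877 CPM in Cd74-low cells.

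Cell cycle genes were low. Of 19 cell cycle genes with enough UMIs, none was at least 2-fold higher and 10 were at least 2-fold lower than in the other cells of both libraries. Mki67 or Top2a was found in 4 of 41 and 1 of 31 cells, and most of these UMIs lay in the deepest cell of each library. The Col1a1fspKO cell of 16210 UMIs held 5 Mki67, 9 Top2a and 28 Stmn1 UMIs, and the WT cell of 19981 UMIs held 7, 11 and 65. Both had Siglech (6 and 3 UMIs), Bst2 (50 and 17) and Irf8 (61 and 46) but no Cox6a2, no Cd74 and no Klk1. The WT cell also held 4 Cd34 UMIs and 1 Mpo UMI, both genes of progenitors.

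Lymphoid genes were present in part. Of 12 shared with B cell progenitors, 4 were at least 2-fold higher (Dntt, Ly6d, Blnk and Il7r) and 6 at least 2-fold lower than in the other cells of both libraries, against 17.2% and 9.5% of all genes. Ly6d, a surface protein of B cell-biased and plasmacytoid progenitors, lay at 1641 and 2415 CPM, against 354 and 559 CPM in Cd79a-positive and 20.5 and 8.52 CPM in Csf1r-positive cells. Blnk, a B cell receptor adaptor, lay at 122 and 124 CPM against 257 and 224 CPM in Cd79a-positive cells. Ebf1, the B lineage factor, had 0 and 10 UMIs, or 0 and 65.1 CPM, against 1933 and 1940 CPM in Cd79a-positive cells. Of the 10, 7 lay in a single WT cell. That cell also held 6 UMIs of the B cell marker Cd79b and 9 of Vpreb3, beside 5 of Siglech, 10 of Bst2 and 9 of Tcf4. Dntt, encoding terminal transferase, was found in 11 of 41 and 5 of 31 cells. A single cell of each library held at least 5 Dntt UMIs, 11 of 23 in Col1a1fspKO and 7 of 12 in WT. The higher level of Dntt thus leaned on these cells. Without them 12 and 5 UMIs were left, and whether Dntt stayed 2-fold higher was not tested. Both of these cells had 3 Siglech UMIs, many Ly6d UMIs (29 and 41), and no Bst2, Ly6c1, Ly6c2, Cd74 or Klk1. The Col1a1fspKO cell held 12 Cox6a2 and 20 Irf8 UMIs and the WT cell 3 and 4.

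Genes of conventional dendritic cells had few UMIs. Their listed markers summed to 244 and 345 CPM, against 15.0 and 16.3 CPM in the other cells. Of 3 such markers with enough UMIs, 3 were at least 2-fold higher in both libraries, against 17.2% of all genes. Flt3, the receptor of the dendritic cell growth factor, lay at 82.8 and 71.6 CPM against 6.52 and 5.55 CPM in the other cells. Clec9a (12 and 8 UMIs) was found in 6 of 41 and 6 of 31 cells, 123-fold and 221-fold above the other cells. Cd209a was found in 9 of 41 and 10 of 31 cells, 12.3-fold and 23.9-fold above them. Zbtb46 and Batf3, factors of conventional dendritic cells, had no UMI. Among chemokine receptors and adhesion genes, Ccr9 and Selplg (the ligand of P-selectin, 4.84-fold and 6.14-fold) were higher than in the other cells. Cxcr3 had 8 UMIs in each library, and Cxcr4, the receptor of marrow retention, lay at 29.2 and 39.1 CPM against 55.6 and 83.0 CPM.

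The genotypes were then compared within the Siglech-positive cells. Of 2304 genes with at least 20 UMIs over both libraries, 90 (3.91%) were at least 2-fold higher and 93 (4.04%) at least 2-fold lower in Col1a1fspKO, and the median log2 ratio was -0.056. Siglech, Bst2, Tcf4 and Cox6a2 had ratios of 1.02 (0.858 to 1.23), 0.881 (0.790 to 0.983), 0.933 (0.768 to 1.14) and 0.981 (0.823 to 1.17). None of the 9 sensing, 7 class II, 12 cytochrome c oxidase or 12 cathepsin and lysosome genes with at least 20 UMIs was 2-fold apart. Nor were 24 of 25 secretory genes, the exception being Atf4 with 16 and 25 UMIs (0.479, 0.239 to 0.933). At the shares over all genes, few would be called in lists this short. Other lists did hold genes 2-fold apart. Among them were 3 higher of 29 surface and signalling genes, and 1 higher and 2 lower of 11 chemokine receptor and adhesion genes. Of 8 cell cycle genes 3 were higher and 1 lower. Cd74 lay at 2128 and 2969 CPM (0.717, 0.627 to 0.819), and the shares of Cd74-high cells are those given above.

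**Figure D4:**
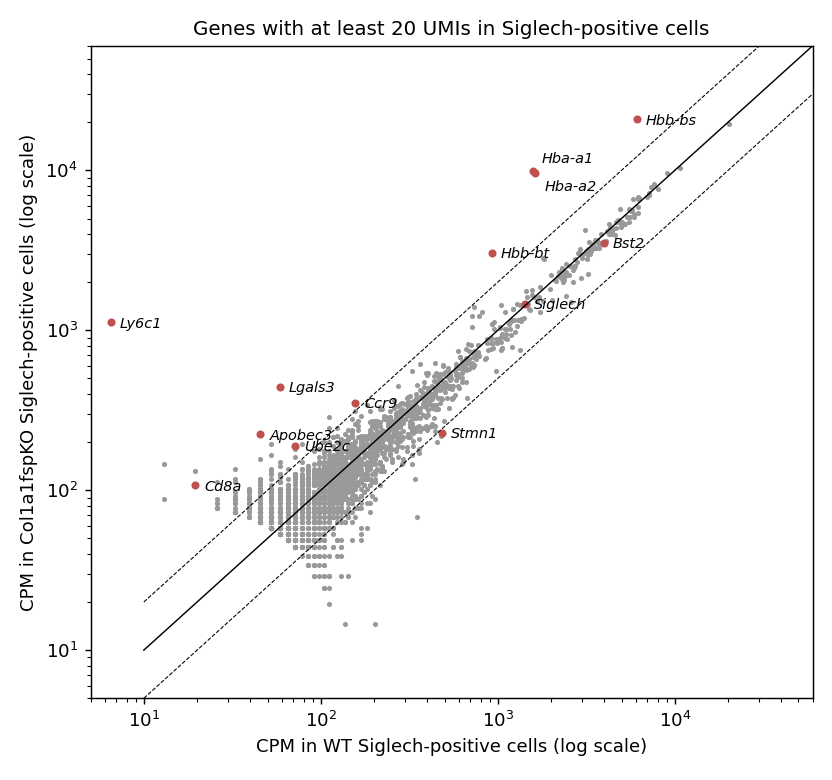
CPM of each gene with at least 20 UMIs in Siglech-positive cells of both libraries together, WT on the x axis and Col1a1fspKO on the y axis, both logarithmic; the solid line marks equal values, the dashed lines 2-fold, and a gene with 0 UMIs in a library is put at 3 UMIs. Ly6c1 stands far above the line at 1125 against 6.51 CPM, and Siglech lies on it.

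Ly6c1 was the gene furthest apart. It encodes a GPI-anchored Ly6C surface antigen found on several leukocyte types. It had 231 UMIs in 39 of 41 Col1a1fspKO cells (median 5 per cell, highest 25) and 1 UMI in 1 of 31 WT cells, a ratio of 173 (30.7 to 6855). The cells of the 2 libraries overlapped only in the 2 Col1a1fspKO cells at 0, the single WT cell at 1 and a Col1a1fspKO cell at 1. The paralog Ly6c2 was present in both, with 582 UMIs in 40 of 41 and 278 UMIs in 27 of 31 cells (1.57, 1.36 to 1.81). The last 500 bases of their transcripts share 20% of stretches of 50 bases, so a part of the UMIs could not be placed by sequence. The other cells of the libraries were apart as well, with Ly6c1 levels of 493 CPM (Col1a1fspKO) and 6.73 CPM (WT), a ratio of 73.3 (56.5 to 97.0).

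**Figure D5:**
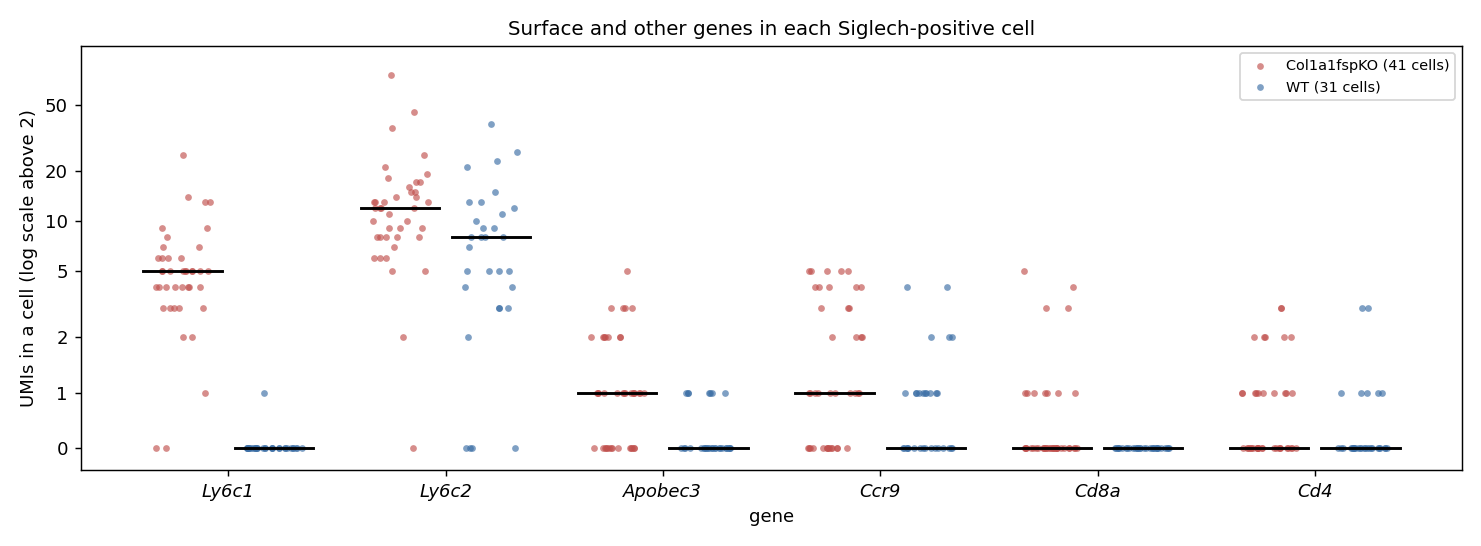
UMIs of 6 genes in each Siglech-positive cell of both libraries; each point is a cell, the black bar is the median, and the axis is logarithmic above 2 UMIs. Ly6c1 has a median of 5 UMIs in Col1a1fspKO and of 0 in WT, while Ly6c2 has medians of 12 and 8, and Cd8a is found in 11 Col1a1fspKO cells and in 0 WT cells.

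Apobec3, a cytidine deaminase that restricts retroviruses, had 46 UMIs in 27 of 41 Col1a1fspKO cells and 7 UMIs in 7 of 31 WT cells (4.92, 2.20 to 12.9). In the other cells its ratio was 4.05 (3.39 to 4.86). Mndal, an interferon-inducible PYHIN gene, had 64 UMIs in 33 of 41 and 24 UMIs in 10 of 31 cells (2.0, 1.23 to 3.34), with a ratio of 2.63 in the other cells. For both genes the rest of the library was apart in the same direction. Ly6c1 and Apobec3 lie 4.85 Mb apart on chromosome 15. Within 10 Mb of Ly6c1, 4 of 46 genes were at least 2-fold higher and 5 of 46 at least 2-fold lower in Col1a1fspKO, against 3.91% and 4.04% of all 2304 genes, in a window chosen after these values were seen. The 4 higher genes included Ly6c1, at the centre of the window, and Apobec3 themselves. The 5 lower genes included Ly6k, with 13 of its 21 WT UMIs in 1 cell.

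Among surface genes, Cd8a, a coreceptor chain that a subset of plasmacytoid dendritic cells displays, had 22 UMIs in 11 of 41 Col1a1fspKO cells (26.8%, 14.2 to 42.9) and 0 UMIs in 31 WT cells (0 to 11.2% of cells with a UMI). The difference in share was 26.8 points (11.2 to 41.9), and the level was at least 5.49-fold higher against a floor of 3 UMIs in WT, while the counting interval of the ratio began at 4.10. The other cells of both libraries held Cd8a at 1.42 and 1.06 CPM. Ccr9 had 72 UMIs in Col1a1fspKO and 24 in WT (2.24, 1.40 to 3.73), while the share of cells with a UMI, 65.9% and 48.4%, differed by 17.5 points (-5.24 to 38.2). Il7r, the interleukin-7 receptor chain, had 29 UMIs in 20 of 41 and 9 UMIs in 8 of 31 cells (2.41, 1.11 to 5.79). When every cell was thinned to 2500 UMIs, the shares for Cd8a were 17.97% and 0%, for Ccr9 51.6% and 33.5% and for Il7r 31.5% and 14.1%.

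Some genes lay the other way. Ly6e, another Ly6 surface protein, had 307 UMIs in Col1a1fspKO and 400 in WT (0.574, 0.493 to 0.668), against a ratio of 0.955 in the other cells. Ly6d had a ratio of 0.680 (0.585 to 0.790) here and 0.607 in the other cells, and Cd7 0.651 (0.524 to 0.809) here and 2.51 (1.95 to 3.27) there. Klk1b27 had 78 and 103 UMIs (0.567, 0.417 to 0.768), and Klk1 92 and 91 (0.756, 0.560 to 1.02). Mvb12a, a subunit of the ESCRT-I sorting complex, had 45 UMIs in 24 of 41 and 73 UMIs in 29 of 31 cells (0.461, 0.311 to 0.678), against 0.880 in the other cells. Itgal, an integrin alpha chain, had 7 UMIs in 5 of 41 and 16 UMIs in 14 of 31 cells (0.327, 0.114 to 0.841). Cd209a had 15 and 29 UMIs (0.387, 0.193 to 0.746) in 9 of 41 and 10 of 31 cells.

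Several of the largest ratios rested on single cells. Hba-a1, an alpha globin gene, had 2049 UMIs in Col1a1fspKO and 243 in WT, and 1760 of the 2049 lay in 1 cell of 11597 UMIs, of which globins made up 59.6%. Without that cell its ratio was 0.943 (0.792 to 1.12), and those of Hba-a2, Hbb-bs and Hbb-bt were 0.913, 1.11 and 0.737 in place of 5.93, 3.42 and 3.30. Lgals3 (galectin-3) had 91 and 9 UMIs, of which 43 lay in the deepest Col1a1fspKO cell, and without the cell with most of it in each library its ratio was 6.31 (2.70 to 18.04). Ube2c had 36 of its 39 Col1a1fspKO UMIs in 1 cell. On the other side, 2810417H13Rik had 52 of its 54 WT UMIs in 1 cell, Stmn1 65 of 74, Tuba1b 55 of 70, Ly6k 13 of 21, Hsp90aa1 23 of 52 and Ranbp1 22 of 50. Without the cell with most of it in each library, Ranbp1 had a ratio of 0.606 (0.339 to 1.08) in place of 0.449 and Hsp90aa1 0.390 (0.198 to 0.742) in place of 0.345. The remaining genes among the 10 at either end were Hmgn3 (2.60, 1.49 to 4.75) and Eif3a (2.49, 1.28 to 5.22) on the higher side, and on the lower side Arpc5l (0.476), Rpgrip1 (0.499), Hes6 (0.503) and Pycard (0.509). Rpgrip1 and Pycard were also lower in the other Col1a1fspKO cells, at ratios of 0.0967 and 0.580.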

How the data were processed

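Bone marrow of 2 mice per genotype was pooled, and 1 library per genotype was made (10x Genomics 3' v2). Per the labels and the study's methods, the deposited values are UMI counts (not normalized) for each gene and cell, made by the authors with Cell Ranger (mm10; version not given in the sources used here) and filtered in Seurat (the sources differ on its version) on genes per cell (200 to 7000) and mitochondrial reads (at most 10%). Cells with at least 3 Siglech UMIs were taken, and their UMIs were summed per library and scaled to CPM (per 1000000 UMIs). With 1 library per genotype no test was run. Intervals (95%) are exact Poisson, exact binomial or Newcombe and cover counting error only, since PCR and capture are not modelled. Ratios use genes with at least 20 UMIs over both libraries, and a set at 0 UMIs is put at 3. Named genes were the markers, the listed genes, the 20 highest over the other cells with at least 100 UMIs, and the 10 highest and 10 lowest between genotypes with at least 50 UMIs. Genes of the Cd74 split and those around Ly6c1 were named after their values were seen. Cells, lists and rules were chosen with earlier results of these data known. The ratio code was tested on simulated data. Cd79a-positive and Csf1r-positive cells held at least 2 UMIs of that gene and no Siglech UMI. Python 3.11.15, scipy 1.17.1 and scanpy 1.11.5 (Scrublet) were used.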

Additional observations from a re-analysis of the deposited data

How the results depend on the processing

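The share of Siglech-positive cells kept its direction between genotypes under all 9 alternatives, with a difference of 0.324 points (cells thinned to 2500 UMIs) to 0.814 points (a shared UMI minimum). The count of genes at least 2-fold higher or lower in Col1a1fspKO, 90 and 93, became 105 and 56 with at least 5 Siglech UMIs, 12 and 8 among genes with at least 50 UMIs, 662 and 764 among genes with at least 1 UMI, and 245 and 319 at 1.5-fold. Without the 20 most abundant genes in the total it was 103 and 80, and without the cell rich in globin 96 and 75. The named genes that turned were those carried by 1 cell. The log2 ratio of Hba-a1 was -0.31 with at least 5 Siglech UMIs, -0.20 with at least 500 CPM of Siglech and -0.085 without the globin-rich cell; that of Hba-a2 was -0.33, -0.15 and -0.13, that of Hbb-bt -0.81, -0.54 and -0.44, and that of Hbb-bs -0.040 under the first. 2810417H13Rik was at 2.0 and Tuba1b at 1.09 with at least 5 Siglech UMIs. Stmn1 was at 3.66 with at least 5 Siglech UMIs, 2.27 with at least 500 CPM, 0.58 without the deepest cell of each library and 2.18 without cells with at least 5 Dntt UMIs or no Cox6a2. In the Cd74 split without the deepest cells and the globin-rich cell, Cks2 turned to 0.371 (Cd74-low over Cd74-high, 3 UMIs left) in Col1a1fspKO. The last setting before it, this one and the one without the globin-rich cell were chosen after seeing the data. No paired analysis was possible because the labels give 1 library per genotype and no replicate numbers. With 41 and 31 cells, genes under 20 UMIs could not be compared.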
